A study of Mus musculus with 8 samples.

Results

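The 10 genes described here encode the hypoxia-inducible factors, the enzymes that mark them according to oxygen supply, and 2 of their well-known targets. They are Hif1a, Epas1, Arnt, Egln1, Egln2, Egln3, Vhl, Hif1an, Bnip3 and Ddit4, out of 18193 genes that at least 1 probe set of the array names alone. A probe set, the unit of measurement on this array, is a group of short probes for 1 transcript, and 23 probe sets name 1 of these genes and no other. The cells were lymphatic endothelial cells, which form the wall of the vessels that carry lymph, sorted from mouse ear skin as CD45- CD31+ podoplanin+ cells. All mice were female, of the FVB strain and 8 to 10 weeks old. The untreated group came from mice described as healthy and untreated, not as vehicle-treated. The inflamed group had contact hypersensitivity (CHS): the mice were sensitised with 2% oxazolone, a contact allergen, on abdomen and paws, challenged 5 days later with 1% oxazolone on the ears, and their ears were taken 24 hours after the challenge. Each group held 4 samples of 3 pooled mice, and the samples of both groups that share a number were processed together, with sorting and RNA extraction on 1 day, which gave 4 pairs. The 4 pairs had been selected for good RNA and amplified material. The contrast asks which transcripts change in lymphatic endothelium when skin is inflamed.

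HIF-1α (Hif1a) and HIF-2α (Epas1) are transcription factor subunits that pair with the constant partner ARNT and bind DNA at a short core sequence. When oxygen is present, the prolyl hydroxylases EGLN1, EGLN2 and EGLN3 mark the α subunits for capture by VHL and destruction by the proteasome, while the asparaginyl hydroxylase HIF1AN blocks their coactivator contact. HIF activity is therefore set largely at the level of protein, whereas Hif1a transcription is also known to respond to inflammatory signals. Arrays measure transcripts, so the values below say nothing of HIF protein.

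Hif1a was the 1 member that passed the test in inflamed skin: its signal was 3.83-fold higher. The other 9 did not pass, with mean changes between -0.51 and 0.25 on the log2 scale. A change here is the mean over the 4 pairs of the log2 signal in the inflamed sample minus that in its untreated partner. It was tested with limma across the 10843 genes that passed a filter on dim probe sets, with Benjamini-Hochberg adjusted p-values and a threshold of 0.05. All 10 members passed this filter. Each gene was represented by its brightest probe set. The 1 member called is 10.0% of the 10, against 6.94% of all genes tested called in either direction and 3.91% called higher. The members called lower were 0 of 10, against 3.02% of all genes. The median change of the members was -0.28, against -0.09 for all genes tested. Centring every array on its median moved the change of all genes up by 0.30 and the split of calls from 424 higher and 328 lower (56.4% higher) to 719 and 227 (76.0% higher), so differences of this size or smaller depend on the scaling.

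**Figure D1:**
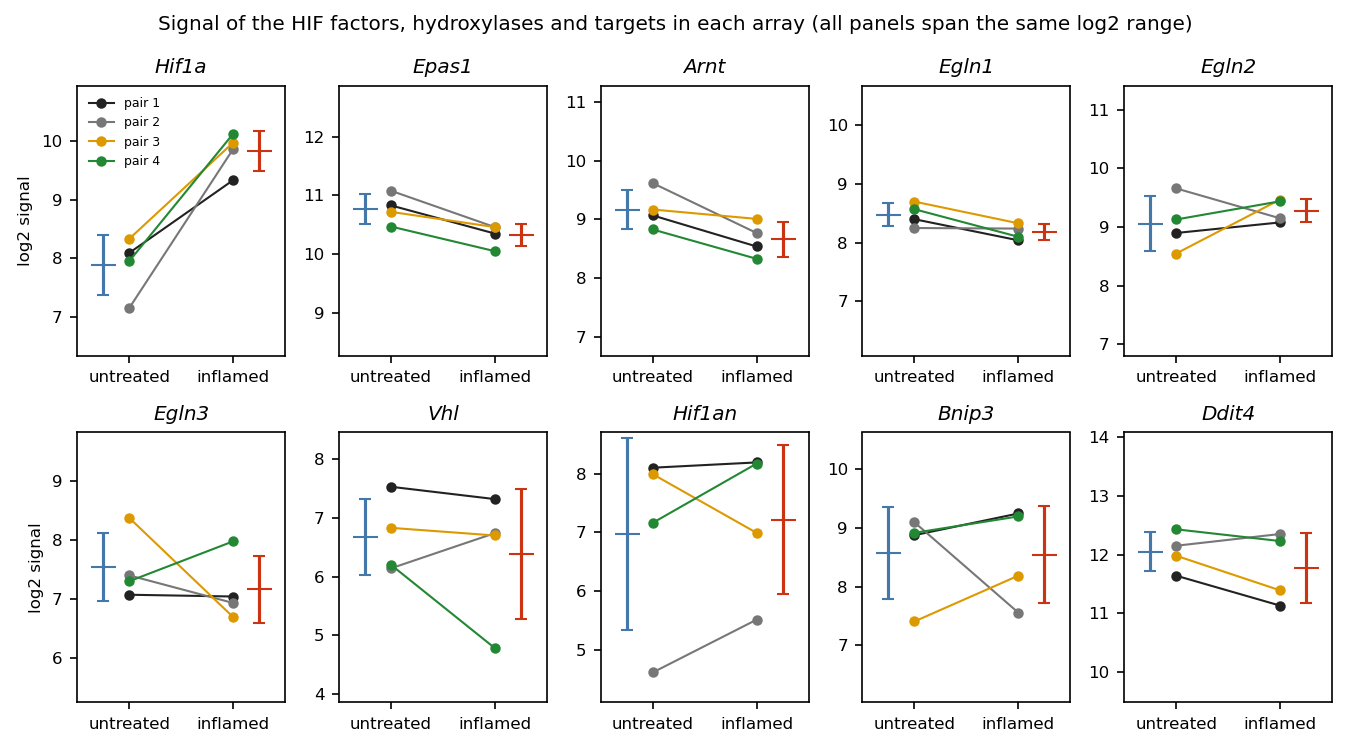
Log2 signal of the brightest probe set of each of the 10 genes in the untreated and the inflamed sample of each pair, joined by lines, with the group mean ± SD (n = 4) beside them in blue and red. All 4 lines of Hif1a rise to 9.33 or above, while those of Epas1, Arnt and Egln1 all slope down by less than 1 and those of the other genes go both ways.

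Mean signals of the arrays ran from 126.2 to 160.4. A share of 53.5% to 62.6% of the probe sets exceeded a background ceiling taken from bacterial control probes. The number of arrays limits the precision. All 8 measured lymphatic endothelial markers were above background on all 8 arrays, with Prox1 at 11.0 to 11.38 (log2) in untreated and 7.79 to 11.05 in inflamed skin, Lyve1 at 11.88 to 12.46 and 11.51 to 12.17, and Flt4 at 12.08 to 12.45 and 11.53 to 12.27. The sort genes Pecam1 and Pdpn were above background on all arrays too. Pdpn, also on the lymphatic endothelial list, had a higher mean in inflamed skin (10.94 to 11.89 in untreated, 11.53 to 12.4 in inflamed). The other markers of that list had lower means, as did Pecam1 (10.36 to 10.59 and 9.04 to 10.65). Ptprc, which encodes the excluded marker CD45, was above background on 0 of 4 untreated and 3 of 4 inflamed arrays. The summed signal of the 8 lymphatic endothelial markers was lower in the inflamed sample of all 4 pairs, 22560 to 30430 in untreated against 12400 to 21590 in inflamed skin, and 4 of the 8 genes were called lower. The summed signal of the 9 pan-endothelial markers was lower in all 4 pairs too (7848 to 12310 against 5030.0 to 9928, 3 called lower). So was that of the 8 blood endothelial markers (2344 to 4608 against 1199 to 2655, 4 called lower and 1 higher). Cdh5 and Emcn in the first list and Plvap, Rgcc and Car4 in the second had higher means in inflamed skin, and the others lower ones. Markers of other cells moved with the condition in both directions. The summed signal of 13 measured neutrophil markers went from 53.8 to 94.2 in untreated to 835 to 1935 in inflamed samples, that of 5 pan-leukocyte markers from 137 to 659 to 1135 to 5601, and that of 14 monocyte and macrophage markers from 738 to 1853 to 1355 to 6143. The monocyte and macrophage sum was lower in pair 2, while the mean log2 signal of this list was higher in 4 of 4 pairs. The 11 fibroblast markers summed to 7122 to 22190 in untreated and 12120 to 25900 in inflamed skin, ranges that overlap. Their sum was higher in pairs 1 to 3 and nearly level in pair 4 (17910 and 17740). Their mean log2 signal was higher in 4 of 4 pairs, and 1 of 10 tested genes was called higher. Thy1 (mean log2 11.18 in untreated, 10.53 in inflamed skin) and Pdgfrb (7.88 and 7.64) had lower means in inflamed skin, and the others higher ones. The 10 keratinocyte markers went from 1013 to 4736 to 199 to 1382, with a sum that was lower in pairs 1, 3 and 4, a mean log2 signal lower in 4 of 4 pairs, and 3 of 7 tested genes called lower. Of the 13 neutrophil markers, S100a8 (mean log2 1.49 in untreated, 8.51 in inflamed skin) and S100a9 (2.27 and 9.57) were the 2 above background on 4 of 4 inflamed arrays, while Elane, Ngp and Ltf were above background on none. Next in mean log2 signal in inflamed skin was Clec4d, at 5.0, so the neutrophil sum rests largely on S100a8 and S100a9. The brightest pan-leukocyte markers in inflamed skin were Cd53 (mean log2 0.90 in untreated, 9.97 in inflamed) and Laptm5 (7.95 and 8.33). Laptm5 ran from 6.89 to 9.28 in untreated and from 4.52 to 11.67 in inflamed samples. Of 3 tested pan-leukocyte and 11 tested monocyte and macrophage genes, 1 and 2 were called higher and 0 lower. Genes under the filter in untreated samples could be tested only through their inflamed ones. In sorted cells measured in bulk, a change in the share of cells of a type and a change of transcript per cell cannot be told apart.

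**Figure D2:**
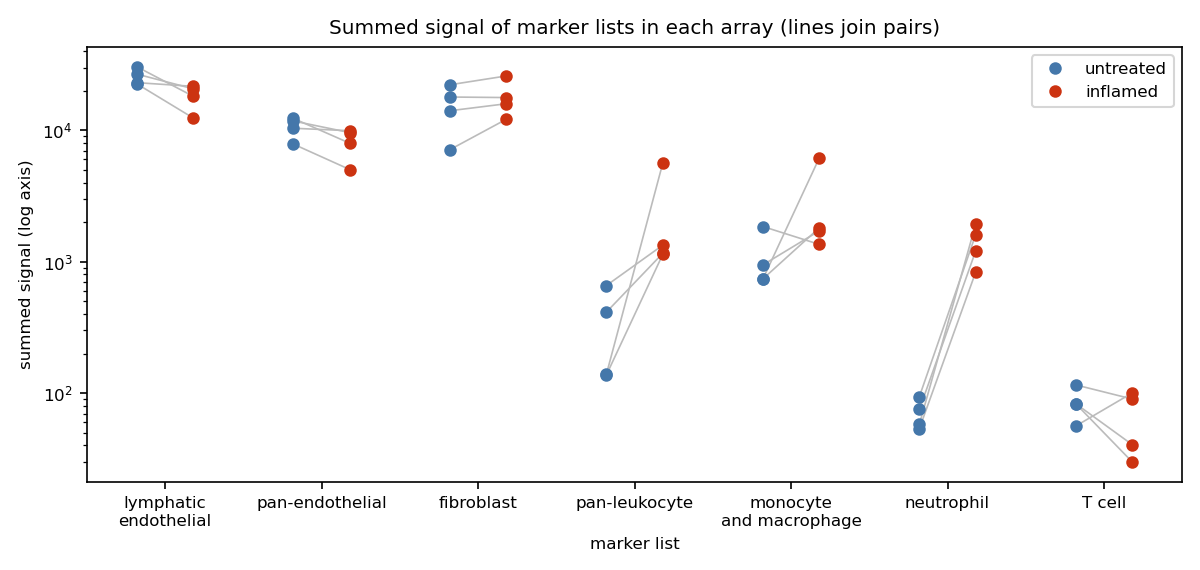
Summed signal (log axis) of the measured markers of 7 cell types in each array, untreated in blue and inflamed in red, with lines joining the samples of a pair. The neutrophil sums of all 4 inflamed samples, 835 or above, lie over those of the untreated samples, and the lymphatic endothelial sums of all 4 inflamed samples, 21590 or below, lie under those of the untreated samples. The neutrophil sums of the inflamed samples rest largely on S100a8 and S100a9.

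The signal of Hif1a was 272, 142, 322 and 247 in the untreated samples of pairs 1 to 4 and 643, 930.1, 1001 and 1111 in the inflamed ones (probe set 1448183_a_at). Every inflamed sample exceeded every untreated one, and pair 2 held the widest gap because its untreated sample was the lowest. On the log2 scale Hif1a went from 7.88 ± 0.51 to 9.82 ± 0.34 (SD, n = 4), a rise of 1.94 ± 0.34 (SE, limma; 95% interval 1.17 to 2.70; adjusted p = 0.0103). Hif1a was higher in 4 of 4 pairs, a pattern found in 13.6% of all genes tested. By its p-value it stood at place 273 of the 10843 genes. The differences within pairs were 1.24, 2.71, 1.64 and 2.17. The call held without any single pair (changes of 1.68 to 2.17, adjusted p = 0.0274 to 0.0492 in limma) and ended when the spread was moderated without its trend on intensity (adjusted p = 0.0965), a setting in which 0.867% of all genes were called higher.

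Another 3 probe sets measure Hif1a, and each was higher in the inflamed sample of all 4 pairs. Probe set 1427418_a_at gave signals of 283, 278, 209.8 and 291 in untreated and 509, 654, 726 and 497 in inflamed skin, a change of 1.16 ± 0.33 (SE). Probe set 1416035_at was dimmer, with 74.4, 18.1, 27.0 and 44.3 in untreated and 122, 203, 330.3 and 167 in inflamed skin, a change of 2.43 ± 0.65. In both of these the groups did not overlap. The dimmest, 1431981_at, was above background on 3 of 4 arrays of each group, overlapped between groups and changed by 1.19 ± 0.79. When each of the 19626 probe sets that passed the filter was tested by itself, 5.72% were called, and of the 4 for Hif1a only 1448183_a_at was among them (adjusted p = 0.00998 in limma). The others had adjusted p = 0.0598 for 1416035_at, 0.0754 for 1427418_a_at and 0.443 for 1431981_at, so the 4 estimates ran from 1.16 to 2.43 and shared their sign. The mean over all 4 probe sets rose by 1.68 (adjusted p = 0.0369 in limma).

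The higher neutrophil and pan-leukocyte sums and the lower endothelial sums given above moved with Hif1a in all 4 pairs. The monocyte and macrophage sum was higher and the keratinocyte sum lower in pairs 1, 3 and 4. In pair 2 they went the other way, from 1853 to 1355 and from 1013 to 1382. The fibroblast sum was higher in pairs 1 to 3 and nearly level in pair 4, while the mean log2 signal of that list was higher in 4 of 4 pairs. The part of these cells in the rise of Hif1a was not tested. The pan-leukocyte sum was highest in the inflamed sample of pair 4, at 5601 against 1135 to 1336 in the other 3. Without pair 4 Hif1a rose by 1.86 (adjusted p = 0.0358 in limma). In pairs 1 to 3 the pan-leukocyte sum was higher in the inflamed sample too, so this fit does not test the part of leukocytes. Of the pan-leukocyte markers, Laptm5 was above background on 4 of 4 untreated arrays, Coro1a on 3 of 4, and Ptprc, Cd53 and Cd52 on none.

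**Figure D3:**
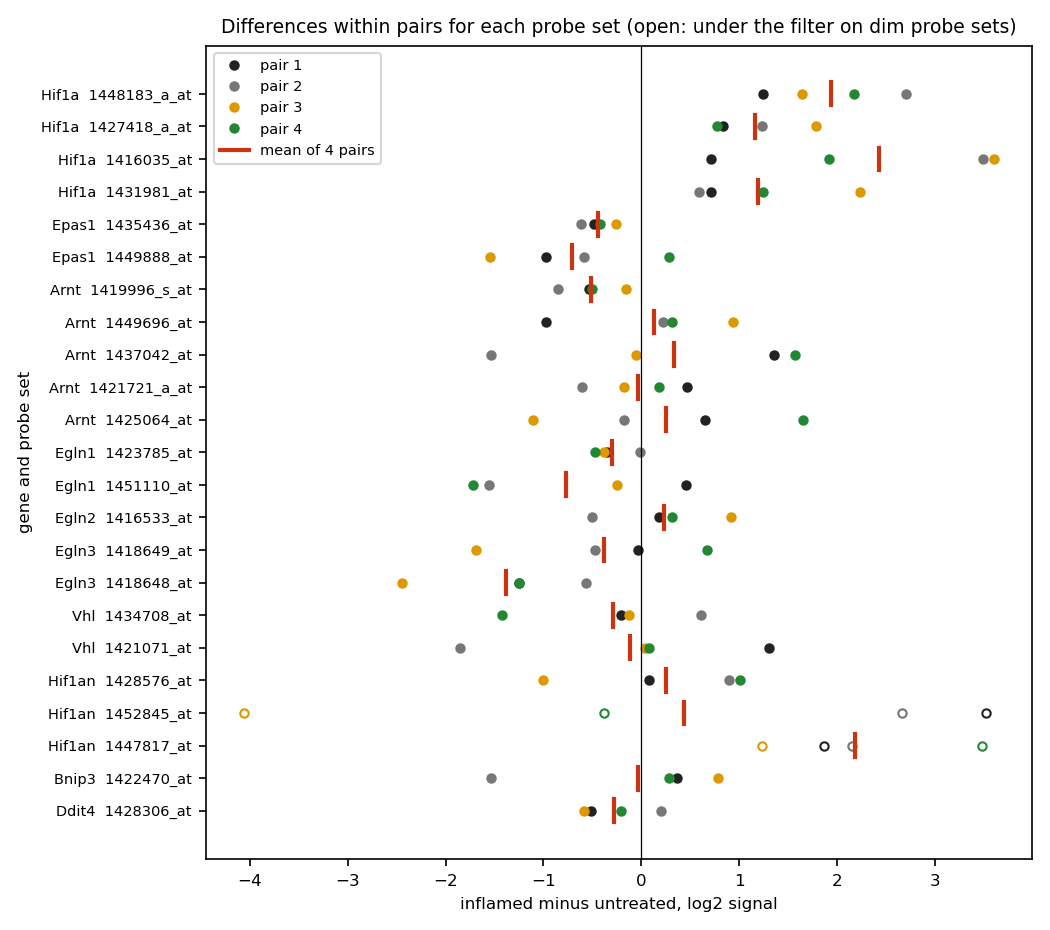
Inflamed minus untreated log2 signal within each of the 4 pairs (points) and their mean (red bar) for all 23 probe sets, with open points for the 2 that did not pass the filter on dim probe sets. All 16 points of Hif1a lie to the right of 0, while the 5 probe sets of Arnt scatter around it.

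HIF dimers bind a core of 5 bases, ACGTG or GCGTG. These letters were searched on both strands in the 250 bases before the gene start, since several members are known HIF targets themselves. The RefSeq promoter table (GRCm38.p6) held 9 of the 10 genes, all but Epas1, in 10 windows. ACGTG on either strand was found in 6 of the 10 windows and in 16.6% of all 32851 promoter windows of the same length, and ACGTG or GCGTG in 8 of the 10 windows and 38.6% of all. A match is a description of the letters and not a site shown to be bound. The windows of Vhl and Hif1an held neither core, and that of Arnt held GCGTG once. The stretches around the ACGTG matches are shown, each 5′ to 3′ on the gene's strand, with every match to ACGTG or GCGTG on either strand in capitals.
Hif1a, chr12:73907712-73907821, + strand: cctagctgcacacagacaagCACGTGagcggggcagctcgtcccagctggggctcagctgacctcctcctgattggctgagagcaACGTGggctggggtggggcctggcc
Bnip3, chr7:138909589-138909634, - strand: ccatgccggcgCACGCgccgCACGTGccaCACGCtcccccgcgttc
Egln1, chr8:124949298-124949342, - strand: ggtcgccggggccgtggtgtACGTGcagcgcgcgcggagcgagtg
Egln2, chr7:27166826-27166870, - strand: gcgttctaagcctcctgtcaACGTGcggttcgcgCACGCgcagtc
Egln3, chr12:54204079-54204123, - strand: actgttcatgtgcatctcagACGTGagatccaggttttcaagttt
Ddit4, chr10:59951933-59951977, - strand: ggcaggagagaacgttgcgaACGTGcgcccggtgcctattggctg
Hif1a and Bnip3 both hold the palindrome CACGTG, which reads as ACGTG on either strand and is found in 6.02% of all windows. It also is the letter string of an E-box, which other factors bind. Of these 6 genes Hif1a alone passed the test.

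Epas1, which encodes HIF-2α, a form of the α subunit that endothelial cells are known to express, had slightly lower values that did not pass the test. Its signal was 1816, 2160.0, 1690.0 and 1415 in untreated and 1303, 1406, 1412 and 1060.0 in inflamed skin (1435436_at). The lowest untreated and the highest inflamed sample nearly met, at 1415 and 1412, and the gene was lower in 4 of 4 pairs, a pattern found in 15.5% of all genes tested. On the log2 scale the means were 10.77 ± 0.25 and 10.33 ± 0.19 (SD, n = 4), a change of -0.44 ± 0.17 (SE; 95% interval -0.83 to -0.05) (adjusted p = 0.173 in limma). The second probe set, 1449888_at, changed by -0.71 ± 0.44, with a lower signal in pairs 1 to 3 and a higher one in pair 4. Under the alternative processing settings the change of Epas1 stayed below 0, between -0.65 with cyclic loess normalization and -0.14 with median centring, and passed under none of the 16. The endothelial marker sums, also lower in 4 of 4 pairs, moved with Epas1 and with its ratio to Hif1a below, and their part was not tested.

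The signals of Hif1a and Epas1 were also compared within each array, where scaling by a constant cancels. The log2 ratio of Hif1a to Epas1 was higher in the inflamed sample of each pair, by 1.72, 3.33, 1.89 and 2.58, with a mean of 2.38 ± 0.73 (SD, n = 4 pairs), a 5.21-fold shift. An exact permutation test that flips the sign of each pair (two-sided) gave p = 0.13, the smallest that 4 pairs allow. With each of the 8 combinations of a Hif1a and an Epas1 probe set the ratio was higher in 4 of 4 pairs, by a mean of 1.60 to 3.14. Probe sets differ in how brightly they report, so the ratio itself does not say which of the transcripts was more abundant.

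**Figure D4:**
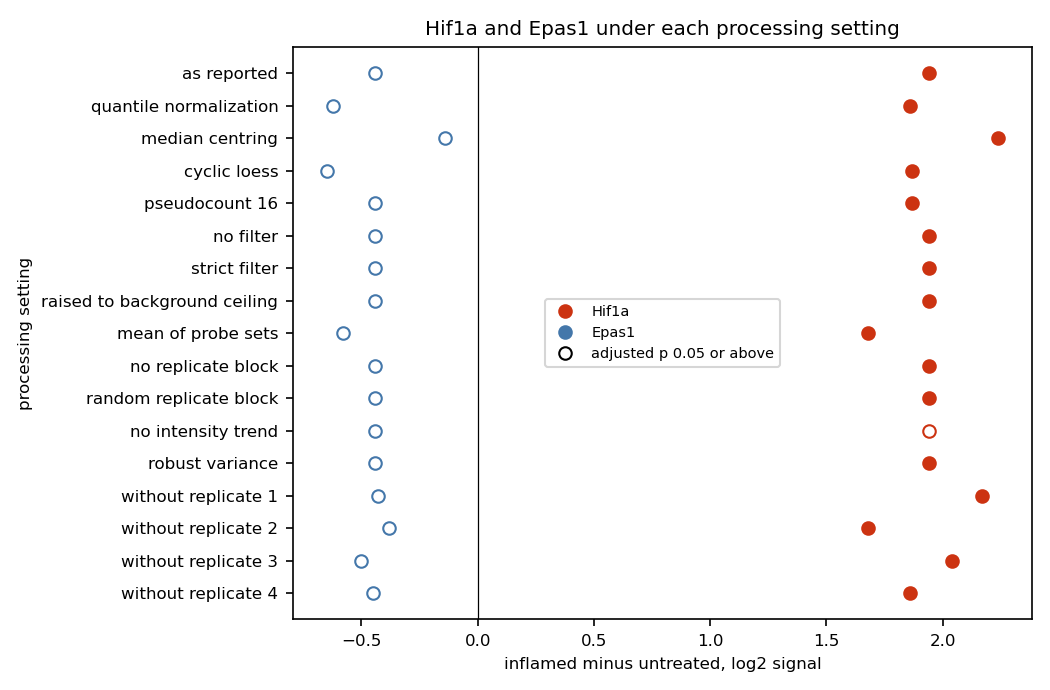
Change of Hif1a (red) and Epas1 (blue) as reported and under 16 other processing settings, where filled points passed the limma test (adjusted p under 0.05) and open ones did not. Hif1a lies between 1.68 and 2.24 and is open only without the intensity trend, and Epas1 lies between -0.65 and -0.14 and is open throughout.

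Arnt, the partner of both α subunits, has 5 probe sets that did not move together. The brightest, 1419996_s_at, gave 537, 789, 576 and 456 in untreated and 371, 437, 517 and 322 in inflamed skin, lower in 4 of 4 pairs by a mean of 0.51 ± 0.29 (SE), which did not pass (adjusted p = 0.355 in limma). The suffix _s_at marks probes that may match transcripts of more than 1 gene. The other 4 probe sets had mean changes of 0.13, 0.33, -0.03 and 0.25, and the mean over all 5 was 0.03 (adjusted p = 0.972 in limma). No direction of Arnt can therefore be read from these arrays.

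Among the prolyl hydroxylases, Egln1, the main oxygen sensor in most tissues, gave 338, 304, 417 and 380.3 in untreated and 264, 302, 321 and 274 in inflamed skin (1423785_at). The groups overlapped, with pair 2 almost level, and the change of -0.30 ± 0.34 (SE; 95% interval -1.06 to 0.45) did not pass (adjusted p = 0.661 in limma). Its second probe set changed by -0.77 ± 0.45, and with median centring the change was 0.00. Egln2 gave 478, 807, 374 and 561 in untreated and 540.4, 569, 708 and 695 in inflamed skin, higher in 3 of 4 pairs, with a change of 0.23 ± 0.31 (95% interval -0.47 to 0.92; adjusted p = 0.730). The inflamed samples of Egln2 lay within the range of the untreated ones.

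Egln3, the hydroxylase gene best known to be induced by HIF itself, was measured by a pair of probe sets that differed in size of change. In the brighter, 1418649_at, the signals were 134, 169, 332 and 158 in untreated and 132, 122, 103 and 252 in inflamed skin, a change of -0.38 ± 0.51 (SE; adjusted p = 0.725 in limma). Pair 3 carried this difference, and without it the change was 0.06. In the dimmer, 1418648_at, they were 97.3, 111, 419 and 106 in untreated and 41.0, 75.04, 76.4 and 44.5 in inflamed skin. Here every inflamed sample was below every untreated one, and the change of -1.38 ± 0.56 did not pass among all probe sets (adjusted p = 0.191 in limma). Without pair 3 this change was -1.02. Groups that did not overlap were found for 5 of the 21 member probe sets that passed the filter, against 12.4% of all such probe sets, and these 5 were 3 of Hif1a, 1 of Epas1 and this one of Egln3.

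Vhl, the substrate receptor of the ubiquitin ligase that captures hydroxylated HIF, gave 185, 70.3, 114 and 73.7 in untreated and 160, 107, 104 and 27.5 in inflamed skin (1434708_at). Pair 2 rose and the other 3 were lower, and the change of -0.29 ± 0.56 (SE; 95% interval -1.55 to 0.97) did not pass (adjusted p = 0.821 in limma). Without pair 4 its sign turned, to 0.09. Hif1an gave 275, 24.4, 254 and 143 in untreated and 292, 45.6, 127 and 289 in inflamed skin (1428576_at). Both samples of pair 2 were far below those of the other pairs, the change was 0.25 ± 0.52 (95% interval -0.93 to 1.42; adjusted p = 0.840) and without pair 4 it was -0.01. The other 2 probe sets of Hif1an did not pass the filter: 1447817_at was above background on 0 of 4 untreated and 2 of 4 inflamed arrays, and 1452845_at on 2 of 4 and 3 of 4. Probe set 1447817_at changed by 2.18 and was higher in 4 of 4 pairs, as were 13.6% of all genes tested. Probe set 1452845_at changed by 0.44. The mean over all 3 probe sets changed by 0.96 (adjusted p = 0.464 in limma).

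The 95% intervals of Egln2, Egln3, Vhl and Hif1an are wide. Each reaches from -0.47 or below to 0.77 or above, and so holds falls as well as rises of these sizes.

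The targets Bnip3 and Ddit4 did not pass the test. Bnip3, which encodes a mitochondrial protein of the BCL2 family that recruits the mitophagy machinery, gave 471, 549.8, 170.2 and 484 in untreated and 608, 189, 291 and 587 in inflamed skin. It was higher in pairs 1, 3 and 4 and lower in pair 2, with a change of -0.03 ± 0.43 (SE; 95% interval -0.99 to 0.93; adjusted p = 0.978 in limma), and without pair 2 the change was 0.47 (adjusted p = 0.544). Ddit4, which encodes REDD1, an inhibitor of the growth kinase complex mTORC1, was bright on all arrays: 3184, 4537, 4045 and 5530.0 in untreated and 2236, 5207, 2682 and 4788 in inflamed skin. It was lower in pairs 1, 3 and 4 and higher in pair 2, a change of -0.28 ± 0.15 (95% interval -0.61 to 0.05; adjusted p = 0.312). Quantile normalization gave -0.59 for Ddit4 (adjusted p = 0.0478 in limma), the 1 setting of 16 in which it passed and one in which 3.35% of all genes were called lower, and median centring gave 0.03.

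Of 44 tested genes of a list of hypoxia-response targets, which does not hold the 10 members, 7 were higher and 2 lower in inflamed samples, or 20.5% against 6.94% of all genes tested, with a median change of 0.26 against -0.09. This list, like those below, was chosen with earlier results of these data known, so its share is only a description. The list holds many glycolytic genes, and with it moved the leukocyte sums given above, whose part was not tested. Pfkfb3, whose product makes the main activator of glycolytic phosphofructokinase, went from 4.94 to 6.89 (log2) in untreated to 9.64 to 10.52 in inflamed samples, a rise of 3.90 ± 0.45 (SE; adjusted p = 0.00154 in limma). Ldha, the A subunit of lactate dehydrogenase, rose by 1.43 ± 0.18, the chemokine receptor gene Cxcr4 by 4.25 ± 0.55 and the growth factor binding protein gene Igfbp3 by 2.64 ± 0.39. Their adjusted p-values were 0.00230, 0.00250 and 0.00488 in limma, and the calls of all 4 genes held without any single pair. Without the intensity trend, Pfkfb3 and Cxcr4 passed, and Ldha (adjusted p = 0.120) and Igfbp3 (0.0533) did not. Cxcr4 is also known from leukocytes. Named after their values were seen, the glycolytic genes Pgk1, Pfkp and Hk2 rose by 1.01, 1.47 and 2.20, while Ak4, a mitochondrial adenylate kinase, and Ccng2, a cyclin of resting cells, fell by 2.01 and by 3.04. Each of these 5 lost its call in 3 or 4 of the 4 fits that left out a pair (pairs 1 to 3 for Pgk1 and Ccng2, pairs 2 to 4 for Ak4, every pair for Pfkp and Hk2), with adjusted p-values of up to 0.133. With the mean of a gene's probe sets, Ak4 (-1.44, adjusted p = 0.164), Ccng2 (-2.66, 0.0634) and Pfkp (1.61, 0.0774) did not pass in limma, which left 0 genes of the list lower. Counts of the list were 4 higher without pair 1, pair 2 or pair 3, and 1, 0 and 0 lower, and 2 higher and 0 lower without the intensity trend.

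The classical targets Vegfa, Slc2a1 and Adm, also named outside the rule, did not pass in the reported fit. Vegfa, the angiogenic growth factor gene, ranged from 3.95 to 5.53 (log2) in untreated and 3.05 to 6.69 in inflamed skin, with a change of -0.18 ± 0.88 (SE; adjusted p = 0.940 in limma) whose sign turned with the scaling. The glucose transporter gene Slc2a1 changed by 0.51 ± 0.19 (adjusted p = 0.165) and Adm, which encodes the lymphatic growth factor adrenomedullin, by 0.34 ± 0.10 (adjusted p = 0.0787), each higher in 4 of 4 pairs, as were 13.6% of all genes tested. Both passed with median centring (0.81, adjusted p = 0.0408 for Slc2a1 and 0.64, 0.0104 for Adm, in limma). Adm also passed with the stricter filter (0.0395), and its change was 0.03 with quantile and 0.01 with cyclic loess normalization.

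**Figure D5:**
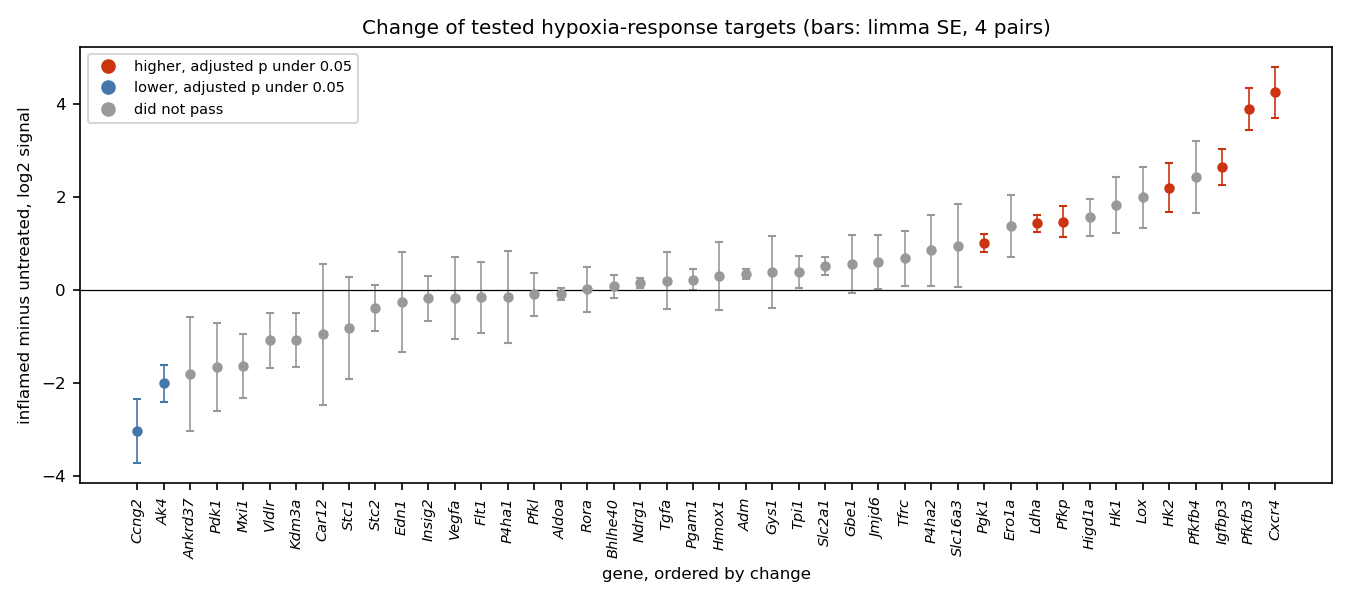
Inflamed minus untreated log2 signal of the 44 tested hypoxia-response targets, ordered by change, with the limma SE over 4 pairs as bars. The 7 genes in red and the 2 in blue passed at an adjusted p under 0.05, with Cxcr4 and Pfkfb3 at the right end near 4, and most of the 35 in grey lie within 2 of 0.

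Around the VHL ligase, 1 of 7 tested partners was higher and 0 lower, against 3.91% and 3.02% of all genes tested. Eloc, the elongin C gene whose product links VHL to the cullin, rose by 0.88 ± 0.15 (SE; adjusted p = 0.00869 in limma), but the mean over its 4 probe sets changed by -0.07, and without pair 2 the adjusted p was 0.0505. Elob, the gene of the elongin B subunit, changed by 1.16 ± 0.31 and lay near the threshold (adjusted p = 0.0555 in limma). It passed in 6 of the 16 other settings, with adjusted p = 0.0246 (median centring) to 0.0492 (no block for pairs). The deubiquitinase genes Usp20 (1.28) and Usp33 (-0.85) did not pass. Of 12 tested regulators and coactivators of HIF protein, 2 were higher and 0 lower (3.91% and 3.02% of all genes). These were Pkm, the glycolytic pyruvate kinase gene, by 1.28 ± 0.24, and Hsp90aa1, a chaperone gene, by 1.13 ± 0.24. With the mean of its probe sets Hsp90aa1 changed by 0.92 and did not pass (adjusted p = 0.198 in limma). Pkm lost its call without pair 1 (adjusted p = 0.0506) or pair 3 (0.05004), and Hsp90aa1 without pair 1, 2 or 3 (0.0895, 0.0901 and 0.0922 in limma). The coactivator genes Ncoa2 and Ncoa3 changed by -1.0 and -0.88 and did not pass.

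Of the tested relatives of the members in protein family, 0 passed, against 6.94% of all genes tested. In lists this short 0 calls is near that share. In the bHLH-PAS family of ARNT and the HIF subunits, 0 of 6 tested genes passed in limma. Ahr, the dioxin receptor gene, had the smallest p, with a change of 1.42 ± 0.52 (SE; adjusted p = 0.141). Hif3a, the third α subunit, was above background on 2 of 4 untreated and 4 of 4 inflamed arrays and changed by 1.18 ± 0.88. Npas2 and Sim2 changed by -0.51 and -0.82, with signs that turned in other settings. Of 17 other oxygenases that use 2-oxoglutarate as EGLN and HIF1AN do, 0 passed, and the lysyl hydroxylase Plod3 came nearest, with 1.48 ± 0.47 (adjusted p = 0.0987, and 0.0475 with median centring). Another pair of lysyl hydroxylase genes, Plod1 and Plod2, changed by -0.69 and 1.20, and the histone demethylase gene Kdm3a, also in the hypoxia list, by -1.08.

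Of 14 tested genes of mitophagy and of autophagy in general, 0 were higher and 2 lower, against 3.91% and 3.02% of all genes. Pink1, the kinase that flags damaged mitochondria, fell by 1.80 (adjusted p = 0.00852 in limma), and Map1lc3b, an autophagosome coat gene, by 0.92 (adjusted p = 0.0123). The call of Map1lc3b ended without pair 1 (adjusted p = 0.0527), without pair 3 (0.0582) or with median centring (-0.61, 0.0564). Map1lc3a (-0.76) and Gabarapl1 (-0.59), of the same coat protein family, did not pass. Of 14 tested genes of the DDIT4 and mTORC1 axis, 0 were likewise higher and 2 lower, against the same shares of all genes. Sesn1, a stress-induced inhibitor of mTORC1, fell by 3.33, from 9.03 ± 0.33 to 5.69 ± 1.26 (SD, n = 4; adjusted p = 0.00828), and Txnip, which encodes the thioredoxin-interacting protein, fell by 1.03 (adjusted p = 0.00761). The call of Txnip ended with median centring (-0.72, adjusted p = 0.0520), and that of Sesn1 with the mean of its probe sets (-2.01, adjusted p = 0.0698 in limma). Eif4ebp1, a repressor of translation, and Tsc1, an mTORC1 inhibitor, changed by 1.49 and -1.41 and did not pass. Rheb is in both of these lists.

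Of 6 tested genes known to act on Hif1a transcription, 2 were higher and 0 lower, against 3.91% and 3.02% of all genes. Il1b, a cytokine gene also known from neutrophils and macrophages, was above background on 0 of 4 untreated and 4 of 4 inflamed arrays. It was at least 24.96-fold higher, the mean of inflamed arrays against the mean background ceiling of untreated ones (adjusted p = 0.00163 in limma). Its mean log2 signal was 0.85 in untreated samples, under the filter of 3.30, and 7.6 in inflamed ones. Il1b was therefore tested only through its inflamed samples. Stat3 rose by 1.32 ± 0.34 (SE) at the edge of the threshold (adjusted p = 0.0497), and without pair 1, 3 or 4 its adjusted p was 0.178, 0.137 or 0.139. It passed in 7 of the 16 other settings, and with the mean of its probe sets the change was 0.56 (adjusted p = 0.373 in limma). Quantile and cyclic loess normalization (0.0670 and 0.0679), no filter (0.0518), robust variance (0.0523) and the fit without the intensity trend (0.212) also ended its call. Rela, the gene of an NF-κB subunit, changed by 1.53 ± 0.71 and Sp1, a general transcription factor gene, by -0.66, and neither passed. Of the 19 calls named here, Hif1a included, the 3 of Pfkfb3, Cxcr4 and Il1b passed without the intensity trend.

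Over the 8 arrays, the genes whose log2 signal was most alike to that of Hif1a were Prdm1, a transcriptional repressor (Pearson r = 0.977), Pfkfb3 (0.973) and Myc, a transcription factor gene (0.973). Those most alike to Epas1 were Zfp606, Pigb and Phip (0.965, 0.960 and 0.957). These values are a description: the arrays share 2 groups and 4 pairs, and any gene that differs between the groups is drawn towards Hif1a by that difference.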

How the data were processed

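RNA of sorted lymphatic endothelial cells was converted to cDNA by linear isothermal amplification, biotin-labelled and hybridised to 8 single-colour arrays, per the labels' protocols. The deposited intensity values are MAS5 signals on a linear scale, per the submitters' processing notes; their scaling target is not given here: it is not stated in the sources used. Of 45101 probe sets, 64 were controls and 34945 named 1 gene in the platform annotation. The median log2 signals of the arrays lay within 0.468 of each other, so the deposited scaling was kept, with no pseudocount. A mean log2 signal of at least 3.30, the median over probe sets, was required, and the brightest probe set represented a gene. The test was limma (version 3.58.1, R 4.3.3; lmFit, eBayes with intensity trend, pair as a fixed block). The code was tested on simulated data. Each sample pooled 3 mice, so p-values refer to pools.

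Pairs were taken from the design description (sorting and extraction on a common day). Within pairs 1 to 4, the deviations of both samples from their group means had correlations of 0.16, 0.00, 0.08 and 0.03. The background ceiling of an array was the 95th percentile of 27 bacterial control probe sets, at a log2 signal of 2.53 to 3.31. The members and gene lists were chosen with earlier results of these data known. Named were all members, up to 4 genes of each list with the smallest p, the sort and identity genes, and the 3 genes most alike to Hif1a and to Epas1. Others are marked as named after their values were seen. Of 147 listed pathway genes that are no members, 131 were measured by a probe set naming them alone and 115 were tested. Counts are over the tested genes.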

Additional observations from a re-analysis of the deposited data

Results flagged for a closer look

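Within the groups of 4, 4 of the 46 sets of values (23 probe sets in both groups) held a sample far from the other 3 by Dixon's criterion, which chance gives in about 1 in 20 groups. All 4 were untreated samples, and 3 of them were the untreated sample of pair 3. There, the log2 signal of Hif1a in 1427418_a_at was 7.71 against 8.12 to 8.18 in the other samples, that of Egln3 in 1418648_at 8.71 against 6.60 to 6.79, and that of Bnip3 7.41 against 8.88 to 9.10. The remaining one was Arnt in 1421721_a_at, at 3.28 in the untreated sample of pair 1 against 5.41 to 5.71. Without pair 3, the changes of the brightest probe sets were 2.04 for Hif1a (adjusted p = 0.0492 in limma), 0.06 for Egln3 and -0.30 for Bnip3.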

How the results depend on the processing

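Of the 16 alternatives, Hif1a passed in 15 (1.68 to 2.24), and the ratio of Hif1a to Epas1 stayed between 2.07 and 2.60. Without the intensity trend 94 genes were higher and 47 lower, 0 members were higher, and 3 pathway genes were higher and 0 lower in place of 12 and 6. Without the replicate block 384 genes were higher and 301 lower, Hif1a still passed, and the calls of Hk2 and Hsp90aa1 ended (adjusted p = 0.0525 and 0.0661 in limma), while Elob passed (0.0492); no other named call changed. Median centring gave 719 genes higher, and quantile normalization 1 member lower, Ddit4. Tested one by one, an alternative added after seeing the data, 508 probe sets were lower. With the mean of a gene's probe sets, 3 pathway genes were lower. Leaving out a pair gave 208 to 306 genes higher and 126 to 198 lower, 1 member higher and 0 lower each time, and 6 to 9 pathway genes higher and 3 to 5 lower.

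Signs turned for values that had not passed and for the called Eloc. Median centring turned Vhl (0.01), Bnip3 (0.27), Ddit4 (0.03) and Vegfa (0.13). The mean of probe sets turned Arnt (0.03), Vegfa (0.16), Npas2 (0.23), Tsc1 (0.20) and the called Eloc (-0.07). Vegfa also turned with quantile (0.04) and cyclic loess (0.13) normalization, and without pair 3 (0.25) or 4 (0.33). Its range over the pairs left out was -1.15 to 0.33. Leaving out a pair in turn also turned Egln2 (-0.01 to 0.47), Egln3 (-0.73 to 0.06), Vhl (-0.59 to 0.09), Hif1an (-0.01 to 0.67), Bnip3 (-0.30 to 0.47) and Sim2 (-2.3 to 0.07). The cause was not tested. Signal near background limits the dim probe sets.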
